A study of Mus musculus with 12 samples.

Results

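The genes described here build the entry gate of the secretory pathway: the signal recognition particle and its receptor, the Sec61 translocon with its accessory complexes, signal peptidase, the oligosaccharyltransferase and the enzymes that assemble the glycan it transfers. They were taken as 39 gene symbols, chosen by function, of the 23337 symbols in each count file, and all 39 were found. After the filter on low counts 38 of them were among the 12038 genes tested. The exception was Sec61g, a small subunit of the channel, which had 0 to 20 reads per library and is not described further. The study sequenced RNA of regulatory T cells (Treg, the CD4 T cells that restrain immune responses under the transcription factor Foxp3) to compare cells with and without a Treg-specific deletion of Hrd1. Hrd1 (gene Syvn1) is the ubiquitin ligase through which misfolded proteins leave the endoplasmic reticulum (ER) for degradation. Natural Treg (nTreg) were sorted as CD4+GFP+ cells from spleen and lymph nodes, and induced Treg (iTreg) were isolated as GFP+ cells after CD4 T cells had been cultured for 5 days with IL2 and TGFbeta. All mice were C57BL/6 and 8 weeks old. Cells labelled KO had the genotype Hrd1 flox/flox, FoxP3-cre+-GFP, and cells labelled WT had Hrd1 +/flox, FoxP3-cre+-GFP. Both labels thus carry the same Cre, driven by Foxp3, and the WT-labelled cells keep a floxed copy that the Cre can remove, so they are Cre-bearing heterozygous controls. Each of the 4 groups had 3 libraries. Nothing in the labels says whether these came from separate mice or pools, and each p-value therefore reflects only how much libraries of 1 group vary, pooled over the 4 groups, which may be partly technical.

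As background, a protein bound for secretion or for a membrane is recognised by the signal recognition particle while it is still being made. The particle docks at its receptor on the ER and hands the ribosome to the Sec61 channel, where the chain enters the lumen, signal peptidase removes the signal sequence, and the oligosaccharyltransferase (OST) moves a preassembled sugar tree from the lipid dolichol to asparagine residues. Many of these genes are known targets of the unfolded protein response, the programme that enlarges the ER's folding capacity through the transcription factors XBP1 and ATF6. The response is best known from plasma cells and other secretory cells. T cells depend on the same gate for their receptors and cytokines.

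Promoter sequence was searched because ATF6 and XBP1 are known to act through short motifs. RefSeq windows of 300 bases (250 before to 50 after the annotated start, build GRCm38.p6) were searched for 28 of the 39 members, in 30 windows. The other members were not searched, so the counts below do not cover them. The sets of all windows and of tested genes were not matched to the searched members. Both strands were searched for the ER stress response element (CCAAT and CCACG with any 9 bases between them), a shorter element (ATTGG and CCACG with any 1 base between them), the unfolded protein response element TGACGTGG and the core CCACG. The core is part of both longer elements, so a match to either counts for it too. The long element was present in 1 member, Alg12, against 0.119% of all 32851 windows. The shorter element was present in 1 member, Krtcap2, against 0.0365% of all windows. TGACGTGG was present in no member window, against 0.676% of all. The core CCACG was present in 17 of the 28 members, in 60% of their windows, against 32.8% of all windows and 47.3% of the 11044 windows of tested genes. Among members with a searched window, it was present in 9 of the 12 that rose in KO-labelled nTreg. It was also present in 8 of the 15 tested members that did not pass there. The 3 stretches below are the Alg12 and Krtcap2 elements and the core of Ssr3, the member of smallest p in KO-labelled nTreg. Values of these members are given in full further on. Cores of other members, some of them also described in full, are not shown. Capitals mark the motif, and each reads 5′ to 3′ on the gene's strand. The Alg12 stretch is chr15:88819500-88819558 (minus strand, motif at -220 to -202 from the start). The Krtcap2 stretch is chr3:89246481-89246509 (plus strand, motif at 18 to 28 after 1 of its annotated starts). The Ssr3 stretch is chr3:65392719-65392763 (minus strand, core at -190 to -186). A match describes letters only, not binding.
Alg12, long element: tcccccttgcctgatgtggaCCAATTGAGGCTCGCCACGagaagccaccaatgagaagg
Krtcap2, shorter element: gggacacggATTGGACCACGgacggggcg
Ssr3, core: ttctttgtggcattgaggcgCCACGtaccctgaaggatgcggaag

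Library totals ran from 6763458 to 15462894 gene counts, and levels are given as CPM, counts scaled to the TMM-normalised library size. Syvn1, the targeted gene, was read at 73.7, 87.2 and 75.5 CPM in nTreg WT replicates 1 to 3 and at 146, 137 and 129.7 CPM in nTreg KO, so its gene-level count was higher in the libraries labelled KO. In iTreg it was 61.6, 72.2 and 101 CPM for WT and 54.6, 73.1 and 63.1 CPM for KO. These counts cover the whole gene, and the floxed exons are not given in the sources used here, so they do not check the deletion. The 6 Treg markers summed to 3797 to 5087 CPM in every library, but single markers went in opposite directions. In iTreg against nTreg 1 was higher and 5 were lower under either label (edgeR, adjusted p under 0.05). Il2ra was 838 ± 38.6 CPM in nTreg WT and 3140 ± 153 CPM in iTreg WT, and Ikzf2 was 1091 ± 173 CPM and 25.5 ± 4.72 CPM (SD, n = 3). In KO-labelled nTreg none of the 6 passed in that fit, while 1 rose and 1 fell in a model blocked on replicate number. The lowest sum was that of iTreg KO replicate 2, where Foxp3 was 191 CPM, against 392 and 375 CPM in KO replicates 1 and 3. Il2ra was also the lowest of all iTreg libraries there, at 2445 CPM, and Ikzf2 the highest, at 34.5 CPM. Ctla4, Cd4 and Cd3e lay within the range of the other iTreg libraries. Fits without this library are given below. Markers of other cells were low but not even. The 6 B cell markers summed to 28.1 to 33.7 CPM in nTreg WT and 16.5 to 17.2 CPM in nTreg KO, and the 8 myeloid markers to 50.1 to 186 and 39.3 to 402 CPM, highest in both nTreg libraries numbered 2. In iTreg the B cell markers summed to 0.994 to 3.01 CPM for WT and 0.528 to 1.51 CPM for KO, and the myeloid markers to 3.90 to 5.27 and 3.66 to 6.02 CPM. The 6 plasma cell markers summed to 32.2, 3.96 and 3.07 CPM in nTreg WT and 105, 95.9 and 68.2 CPM in nTreg KO, so they were higher in the KO-labelled libraries, as the members were. Most of that sum in nTreg KO was Derl3, itself an ER gene, at 1.77, 2.12 and 1.02 CPM in nTreg WT and 86.7, 94.5 and 66.7 CPM in nTreg KO. The other 5 summed to 30.4, 1.84 and 2.05 CPM and 18.3, 1.39 and 1.51 CPM. The part of B cell, plasma cell and myeloid transcripts in the results was not tested, and counts without both libraries numbered 2 are given below. In bulk RNA, fewer cells of a type and less RNA per cell cannot be told apart.

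In nTreg, genes of the entry gate were broadly higher in the libraries labelled KO. Of 38 tested members 19 rose and none fell at an adjusted p under 0.05 (edgeR's quasi-likelihood test, Benjamini-Hochberg over all genes tested), whereas 2.18% of all tested genes rose and 0.341% fell. The median member was 1.49-fold higher (log2 fold change 0.57, range -0.11 to 1.46), against a median log2 fold change of 0.0095 over all tested genes. In 33 members all 3 KO libraries lay above all 3 WT libraries, which 15.7% of all tested genes did, and in 35 members the KO library was above the WT library in 3 of 3 same-numbered pairs, against 28.8% of all. Summed over the members, the level was 3809, 3814 and 3819 CPM in the 3 WT libraries and 6089, 6376 and 5878 CPM in the 3 KO libraries. With the replicate number as a block, 27 members rose and none fell, while 5.36% of all tested genes rose and 3.64% fell. Without the 3 libraries that hold Xist reads (nTreg WT 3, nTreg KO 3 and iTreg WT 2) 8 members passed, all higher, against 0.598% of all tested genes, and without both nTreg libraries numbered 2 there were 11, all higher, against 0.847%. The median log2 fold changes of the members were 0.59 and 0.56.

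**Figure D1:**
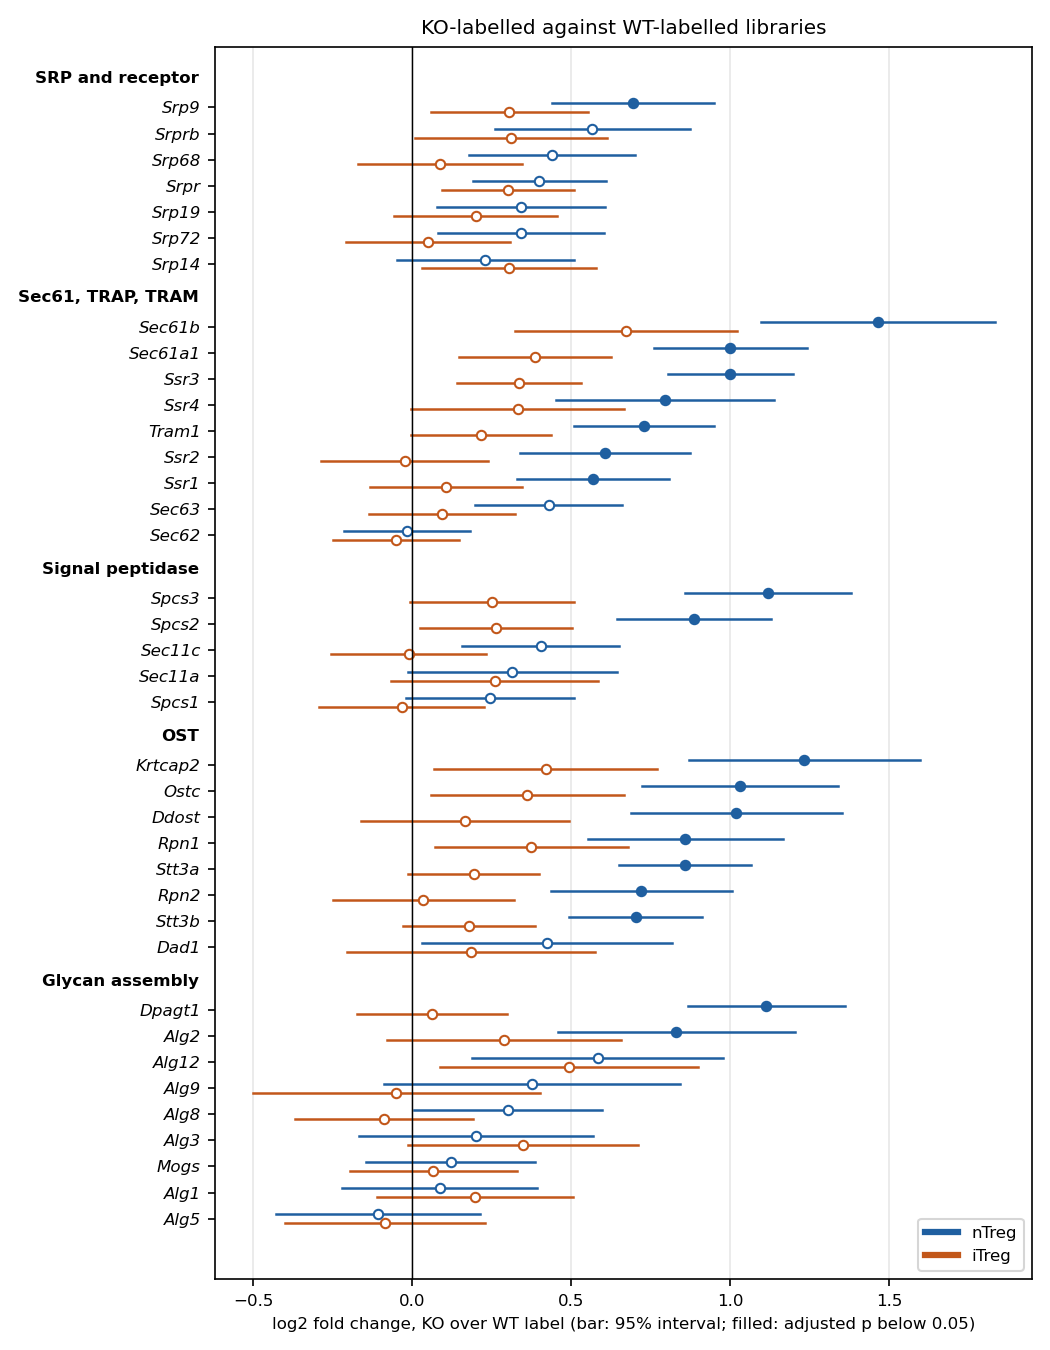
Log2 fold change of KO-labelled over WT-labelled libraries (x axis) for each tested member (y axis, grouped by role and ordered by the nTreg value), in nTreg (blue) and iTreg (orange), 3 libraries a group. Bars are 95% intervals of the edgeR fit and filled points have an adjusted p below 0.05. In nTreg 19 points are filled, most of them in the translocon and oligosaccharyltransferase groups, and in iTreg none is.

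Most targeting genes stayed short of the threshold. Of the 7 members of the signal recognition particle and its receptor 1 passed in nTreg, Srp9, although all 7 had positive values (median log2 fold change 0.40), and 5 passed with the replicate block. Srp9, which with Srp14 forms the domain that slows elongation while the ribosome is on its way, was 36.6, 42.6 and 33.6 CPM in nTreg WT and 61.4, 60.9 and 59.99 CPM in nTreg KO. The groups did not overlap, and the difference was 1.62-fold (log2 fold change 0.69, SE 0.117, adjusted p = 0.0056). Its partner Srp14 had a log2 fold change of 0.23 (95% interval -0.05 to 0.51, adjusted p = 0.47 in edgeR), with overlapping groups.

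The receptor genes lay near the threshold. Srpr, the GTPase subunit that receives the particle, was 116, 101 and 101 CPM in nTreg WT and 133, 141 and 146 CPM in nTreg KO, a log2 fold change of 0.40 (adjusted p = 0.052 in edgeR, 0.03 with the replicate block). Srprb, which anchors Srpr in the membrane, was 53.9, 44.3 and 45.8 CPM and 71.0, 68.1 and 74.0 CPM, a log2 fold change of 0.57 (adjusted p = 0.061 in edgeR, 0.0096 with the block). In both genes every KO library was above every WT library. The Srprb exons overlap 888 bases of the predicted gene Gm20425 on the same strand, so its reads may not be its own alone. Srp68, which with Srp72 forms a core pair of the particle, was 102, 89.0 and 104 CPM and 139.8, 126 and 134 CPM (log2 fold change 0.44, adjusted p = 0.094 in edgeR, 0.0074 with the block). Srp72 had a log2 fold change of 0.34, with an adjusted p of 0.22 in edgeR and 0.013 with the block. Srp19, needed for assembly of the particle, was 38.3, 40.5 and 43.5 CPM and 49.6, 53.6 and 51.9 CPM and did not pass in either fit (adjusted p = 0.22 and 0.073).

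At the channel 7 of 9 tested members rose in KO-labelled nTreg (8 with the replicate block), with a median log2 fold change of 0.73. Sec61b, the small beta subunit, had the largest value of all members: 21.1, 21.7 and 19.9 CPM in nTreg WT against 63.8, 64.1 and 44.7 CPM in nTreg KO, 2.76-fold higher (log2 fold change 1.46, SE 0.169, adjusted p = 0.00033). KO replicate 3 was the lowest of its group and still more than any WT library. Sec61a1, which forms the pore itself, was 263, 251 and 257 CPM and 529, 510.5 and 501 CPM, a log2 fold change of 1.0 (SE 0.110, adjusted p = 0.00026). Its exons overlap those of the predicted gene Gm44170 on the opposite strand over 549 bases, and the strand setting of the counting is not given. Opposite-strand overlaps were also found for other members, among them Srp9 (Gm17968, 784 bases) and Krtcap2 (Trim46, 239 bases). Sec11a overlaps Nmb on the same strand over 163 bases, and Spcs2 has 1 named pseudogene.

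The TRAP complex, which sits beside the channel and helps chains with weak signal sequences to enter, rose in all 4 subunits. Ssr3, whose promoter core is printed above, was 205, 183 and 196 CPM in nTreg WT and 393, 395 and 379 CPM in nTreg KO (log2 fold change 0.999, SE 0.0903, adjusted p = 6.3e-05), the smallest p of all members. Both groups were narrow and far apart. Ssr4, Ssr2 and Ssr1 had log2 fold changes of 0.80, 0.61 and 0.57. Each of these 3 lost its call in 4 or 5 of the 6 fits that leave out 1 nTreg library, with adjusted p up to 0.11, 0.098 and 0.085. Tram1, a membrane protein that contacts entering chains, was 213, 229 and 250.2 CPM and 359.8, 422 and 366 CPM (log2 fold change 0.73, adjusted p = 0.0013 in edgeR). Its groups were separate, and its adjusted p was 0.054 without both libraries numbered 2.

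Sec62 and Sec63, which serve chains that enter after synthesis and recruit the chaperone BiP, differed from the rest of the group. Sec62 was the only channel member with no positive value in nTreg (log2 fold change -0.02, 95% interval -0.21 to 0.18), so a rise of the size of Sec61a1 lies outside its interval. Sec63 had a log2 fold change of 0.43 with an adjusted p of 0.06 in edgeR and 0.013 with the block.

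**Figure D2:**
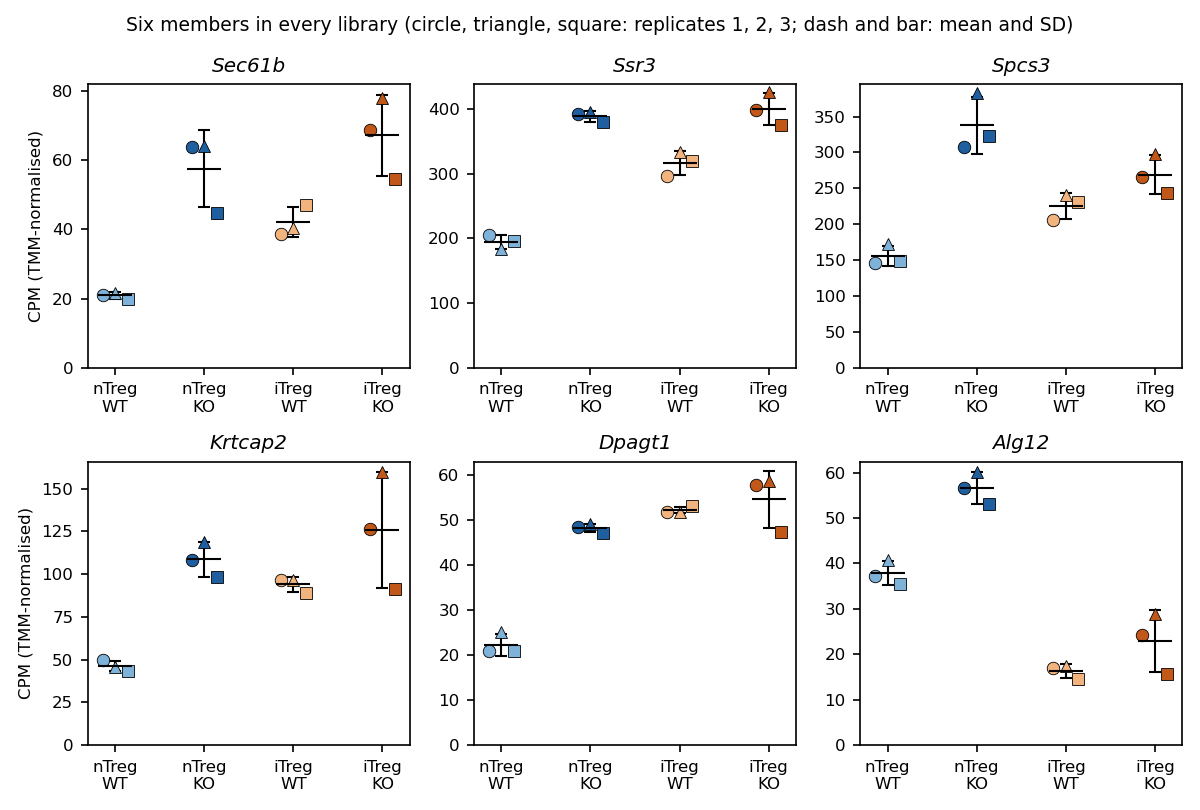
CPM (y axis, from 0) of Sec61b, Ssr3, Spcs3, Krtcap2, Dpagt1 and Alg12 in each of the 12 libraries, by group (x axis), with symbols for the replicate number and a dash and bar for the group mean and SD. The nTreg KO libraries lie above the nTreg WT libraries in all 6 panels, and iTreg KO replicate 3 is the lowest of its group in each.

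In signal peptidase the genes that rose in KO-labelled nTreg were accessory subunits, 2 of 5 members, and 3 members passed with the block. Spcs3, an accessory subunit that the complex needs for activity, was 146, 172 and 149 CPM in nTreg WT and 308, 383 and 323 CPM in nTreg KO, 2.17-fold higher (log2 fold change 1.12, SE 0.120, adjusted p = 0.00023). Spcs2 was 170.2, 169.7 and 161 CPM and 311, 314 and 300.3 CPM, 1.85-fold higher (log2 fold change 0.89, SE 0.112, adjusted p = 0.00069). Neither gene's groups overlapped. Spcs1, the remaining accessory subunit, was 54.5, 55.8 and 46.7 CPM and 62.0, 65.0 and 58.6 CPM (log2 fold change 0.24, 95% interval -0.02 to 0.51, adjusted p = 0.41 in edgeR). The proteases Sec11a and Sec11c are alternative catalytic subunits. Sec11a was 89.1, 82.4 and 87.3 CPM and 116, 101 and 105 CPM (log2 fold change 0.32, adjusted p = 0.4 in edgeR). Sec11c was 89.2, 100.5 and 79.3 CPM and 115, 134 and 106 CPM (log2 fold change 0.40, adjusted p = 0.11 in edgeR and 0.0063 with the block). In both proteases the KO libraries lay above the WT libraries by small margins, and the differences between subunits were not tested.

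The oligosaccharyltransferase rose nearly as a whole: 7 of 8 members passed in nTreg, and all 8 with the block, with a median log2 fold change of 0.86. Krtcap2, a subunit of the complexes built on Stt3a, was 49.5, 45.9 and 43.5 CPM in nTreg WT and 108, 119 and 98.3 CPM in nTreg KO, 2.35-fold higher (log2 fold change 1.23, SE 0.167, adjusted p = 0.0011). Ostc, which also belongs to the Stt3a form and links it to the channel, was 69.6, 80.7 and 71.0 CPM and 150.1, 166 and 136 CPM, 2.04-fold higher (log2 fold change 1.03, SE 0.141, adjusted p = 0.0012). Their KO libraries were all above every WT library.

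Both catalytic subunits rose. Stt3a, which glycosylates chains as they pass the channel, was 143, 144 and 145 CPM and 260.5, 275 and 247 CPM, 1.81-fold higher (log2 fold change 0.86, SE 0.0953, adjusted p = 0.00027). Stt3b, which acts on sites that Stt3a has skipped, was 169, 163 and 182 CPM and 269.9, 271 and 296 CPM, 1.63-fold higher (log2 fold change 0.70, SE 0.0959, adjusted p = 0.0011). Per kilobase of annotated exon Stt3b was the higher of the pair in both groups. It was at 40.6 against 16.1 CPM per kb in WT-labelled and 66.1 against 29.1 in KO-labelled nTreg. The size of this gap depends on the merged exon lengths, 8948 bases for Stt3a and 4221 for Stt3b. These may differ from the transcripts the cells use. Of the subunits that both forms share, Ddost, Rpn1 and Rpn2 had log2 fold changes of 1.02, 0.86 and 0.72. The Rpn2 call was lost in 2 of the 6 fits that leave out 1 library (adjusted p up to 0.063). Dad1, a small shared subunit, had a log2 fold change of 0.42 (adjusted p = 0.33 in edgeR, 0.049 with the block). Without the 3 Xist libraries Krtcap2, Ostc and Stt3b kept log2 fold changes of 1.25, 1.07 and 0.70, at adjusted p of 0.053, 0.053 and 0.052.

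The glycan enzymes were mixed, with 2 of 9 rising in KO-labelled nTreg (3 with the block) and a median log2 fold change of 0.30. Dpagt1, which starts the sugar tree on dolichol and is the target of tunicamycin, was 20.8, 25.1 and 20.9 CPM in nTreg WT and 48.3, 49.0 and 47.2 CPM in nTreg KO. That was 2.16-fold higher (log2 fold change 1.11, SE 0.114, adjusted p = 0.00016), with groups far apart. Alg2, which adds early mannoses on the cytosolic face, was 26.4, 37.4 and 33.7 CPM and 45.0, 68.9 and 59.2 CPM (log2 fold change 0.83, adjusted p = 0.021 in edgeR). Its groups were separate but wide, its call was lost in 4 of the 6 fits that leave out 1 library (adjusted p up to 0.11), and its adjusted p was 0.3 without the Xist libraries and 0.15 without those numbered 2. Alg2 and Sec61b lie side by side on chromosome 4 on opposite strands (47465067 to 47474333 and 47474658 to 47483242, GENCODE M21, mm10).

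No other glycan enzyme, early or late, passed in the unblocked fit. Alg12, a mannosyltransferase of the ER lumen whose promoter holds the long element, was 37.2, 40.8 and 35.5 CPM in nTreg WT and 56.7, 60.1 and 53.1 CPM in nTreg KO. The groups were separate, and the log2 fold change of 0.58 had an adjusted p of 0.15 in edgeR and 0.013 with the block. Alg8, a glucosyltransferase that acts late, was 18.0, 19.96 and 16.6 CPM and 23.2, 22.8 and 21.0 CPM (log2 fold change 0.30, adjusted p = 0.37). The mannosyltransferases Alg9, Alg3 and Alg1 had log2 fold changes of 0.38, 0.20 and 0.09, and none passed in either fit. Mogs, which trims the outermost glucose after transfer, had 0.12 (95% interval -0.14 to 0.39), and Alg5, which makes the glucose donor, had -0.11 (95% interval -0.43 to 0.21).

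In iTreg no member passed the same test, with or without the replicate block, while 0.183% of all tested genes did without it and 0.947% with it. Members were mostly positive, 31 of 38 against 47% of all tested genes, with a median of 1.15-fold (log2 fold change 0.20, range -0.09 to 0.67), where the median of all tested genes was -0.0131. Groups were separate with KO higher for 11 members and with KO lower for none, against 4.68% and 4.95% of all tested genes. At an unadjusted edgeR p under 0.05 there were 12 of the 38 members, against 910 of the 12038 tested genes. In 3 of 3 same-numbered pairs 16 members were higher, against 14.1% of all. DESeq2 called 2 members, Ssr3 and Sec61b, at adjusted p of 0.014 and 0.034, and 0.615% of all tested genes as higher. The summed level was 5152, 5576 and 5697 CPM in iTreg WT and 6175, 7063 and 5614 CPM in iTreg KO, so KO replicate 2 was the highest library and KO replicate 3 lay within the WT range.

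Sec61b again had the largest value: 38.8, 40.5 and 47.2 CPM in iTreg WT and 68.8, 78.1 and 54.7 CPM in iTreg KO, a log2 fold change of 0.67 (95% interval 0.32 to 1.02, adjusted p = 0.22 in edgeR). Its groups did not overlap. Ssr3 was 297, 334 and 319.9 CPM and 398, 426 and 376 CPM, also without overlap (log2 fold change 0.34, 95% interval 0.14 to 0.53, adjusted p = 0.29 in edgeR). Sec61a1 was 291, 312 and 371 CPM and 428, 467 and 378 CPM (log2 fold change 0.39), with KO replicate 3 just above the highest WT library. Tram1 was 202, 199 and 225 CPM and 238, 253 and 235 CPM (log2 fold change 0.21). These 4 channel genes kept separate groups at a size below that in nTreg.

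The targeting genes had a median log2 fold change of 0.30 in iTreg, against 0.40 in nTreg. Srp9 was 57.3, 53.3 and 68.0 CPM in iTreg WT and 70.3, 77.6 and 72.6 CPM in iTreg KO (log2 fold change 0.31). Srpr was 126, 134 and 144 CPM and 174, 173 and 152 CPM (log2 fold change 0.30, 95% interval 0.09 to 0.51), and its groups were separate. Srprb was 48.4, 61.3 and 58.7 CPM and 65.7, 84.0 and 59.4 CPM (log2 fold change 0.31), with overlap. Srp68, at 156, 164 and 142 CPM and 153, 194 and 144 CPM, and Srp19, at 63.3, 68.2 and 72.4 CPM and 70.5, 93.4 and 70.3 CPM, overlapped, and KO replicate 2 was the highest library of each.

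For signal peptidase the iTreg median was 0.25. Spcs3 was 206, 241 and 231 CPM in iTreg WT and 266, 297 and 244 CPM in iTreg KO (log2 fold change 0.25, 95% interval -0.01 to 0.51), with barely separate groups. Spcs2 was 247, 231 and 309 CPM and 315, 335 and 294 CPM (log2 fold change 0.26), and WT replicate 3 overlapped the KO group. Sec11a, at 102, 107 and 107 CPM and 112, 166 and 102 CPM, had a log2 fold change of 0.26, which was 0.02 without KO replicate 2. Sec11c, at 117, 106 and 117 CPM and 119.7, 107 and 110.3 CPM, and Spcs1, at 87.1, 84.3 and 79.5 CPM and 81.3, 95.2 and 69.0 CPM, overlapped fully, with log2 fold changes of -0.01 and -0.03.

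The oligosaccharyltransferase, the group of largest median in nTreg, had a median of 0.19 in iTreg. Krtcap2 was 96.2, 96.7 and 88.9 CPM in iTreg WT and 127, 159 and 91.5 CPM in iTreg KO (log2 fold change 0.42), with KO replicate 3 inside the WT range. Ostc was 102, 105 and 105 CPM and 123, 167 and 111 CPM (log2 fold change 0.36), without overlap. Stt3a, at 245, 269.8 and 265 CPM and 308, 318 and 265 CPM, and Stt3b, at 285, 283 and 334 CPM and 339.5, 351 and 331 CPM, overlapped through KO replicate 3. Their 95% intervals of -0.01 to 0.40 and -0.03 to 0.39 leave out changes as large as those of the same genes in nTreg (0.86 and 0.70).

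Among the glycan enzymes, with an iTreg median of 0.07, Alg12 had the largest value. It was 16.9, 17.3 and 14.5 CPM in iTreg WT and 24.2, 28.9 and 15.7 CPM in iTreg KO (log2 fold change 0.49, adjusted p = 0.54 in edgeR, 0.048 without iTreg KO replicate 3). Dpagt1 was 51.8, 51.7 and 53.0 CPM and 57.8, 58.5 and 47.3 CPM (log2 fold change 0.06, 95% interval -0.17 to 0.30), and the groups overlapped. Alg2 was 32.7, 35.6 and 29.3 CPM and 44.0, 39.3 and 36.0 CPM (log2 fold change 0.29), with KO replicate 3 hardly above the WT group. Alg8 was 48.9, 50.02 and 45.7 CPM and 46.3, 52.3 and 37.6 CPM (log2 fold change -0.09).

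**Figure D3:**
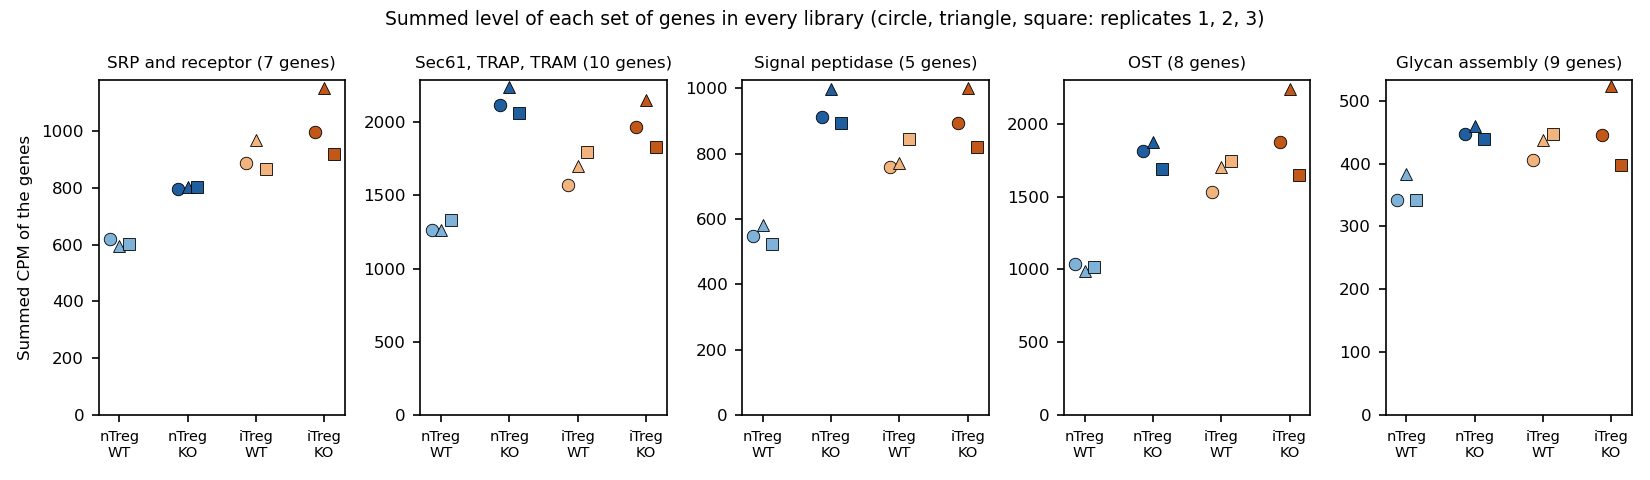
Summed CPM of the genes of each role (y axis, from 0) in every library, by group (x axis), with symbols for the replicate number. The nTreg KO libraries are above the nTreg WT libraries in each of the 5 panels, while iTreg KO replicate 2 is the highest and replicate 3 the lowest of the iTreg KO libraries.

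The difference between the KO effects was tested directly, as iTreg minus nTreg. The iTreg had been cultured for 5 days while the nTreg were sorted from tissue, so cell kind and culture cannot be told apart. The Cre is driven by Foxp3, so the time since Hrd1 was lost may also differ between the cell kinds. It was not measured and cannot be told apart from them either. Of 38 members 34 had a negative difference (median -0.42, against -0.031 over all tested genes), that is, a smaller value in iTreg, while 45.4% of all tested genes had a positive one. Only Dpagt1 passed in the edgeR fit without a block, at -1.05 (SE 0.157, adjusted p = 0.017; 0.274% of all tested genes passed as lower). It lost that call in 5 of the 12 fits that leave out 1 library, with adjusted p up to 0.075, and without the Xist libraries (0.47), without both nTreg libraries numbered 2 (0.12) and at equal depth (0.084), while its value ran from -1.14 to -0.96 in those fits and the leave-one-out fits. With the replicate block 7 members passed, all lower in iTreg: Spcs3, Dpagt1, Ssr3, Ddost, Stt3a, Rpn2 and Krtcap2, at adjusted p of 0.0075, 0.0088, 0.015, 0.018, 0.023, 0.039 and 0.04, where 1.46% of all tested genes passed as lower. Of these 7 genes 4 are oligosaccharyltransferase subunits. Without iTreg KO replicate 2 the unblocked fit called 8 members, all lower, against 0.457% of all tested genes. By role the median difference was -0.67 for the oligosaccharyltransferase, -0.51 for the channel, -0.42 for signal peptidase, -0.26 for the targeting genes and -0.09 for the glycan enzymes. For Srpr it was -0.10 (95% interval -0.39 to 0.20). Alg12 had -0.09 (95% interval -0.66 to 0.47), an interval that covers a difference in either direction.

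In WT-labelled cells the gate genes were mostly higher in iTreg than in nTreg. Here too, and in KO-labelled cells, cell kind, the 5 days of iTreg culture and the time since the Cre acted cannot be told apart. Of 38 members 27 were higher and 2 lower (edgeR, adjusted p under 0.05), but 34.8% of all tested genes were higher and 30.4% lower. The median member was 1.56-fold higher (log2 fold change 0.64, against 0.0489 over all tested genes). In 28 members all iTreg WT libraries lay above all nTreg WT libraries, against 37.4% of all tested genes. By role, 6 of 7 targeting genes, 6 of 9 channel genes, 4 of 5 signal peptidase genes, 7 of 8 oligosaccharyltransferase genes and 4 of 9 glycan enzymes were higher. B cell and myeloid markers were lower in iTreg. The B cell markers summed to 28.1 to 33.7 CPM in nTreg WT and 0.994 to 3.01 CPM in iTreg WT. The myeloid markers summed to 50.1 to 186 and 3.90 to 5.27 CPM. For the other lists the sums overlapped. They were 12.03 to 17.03 and 12.6 to 21.32 CPM for CD8 T cell markers. Plasma cell markers had 3.071 to 32.2 and 4.699 to 5.926 CPM, and NK cell markers 3.629 to 7.385 and 0.09036 to 5.499 CPM. In edgeR 1 CD8 T cell and 1 plasma cell marker were higher in iTreg, and 1 of each was lower (adjusted p under 0.05). The part of these marker transcripts in the result was not tested.

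**Figure D4:**
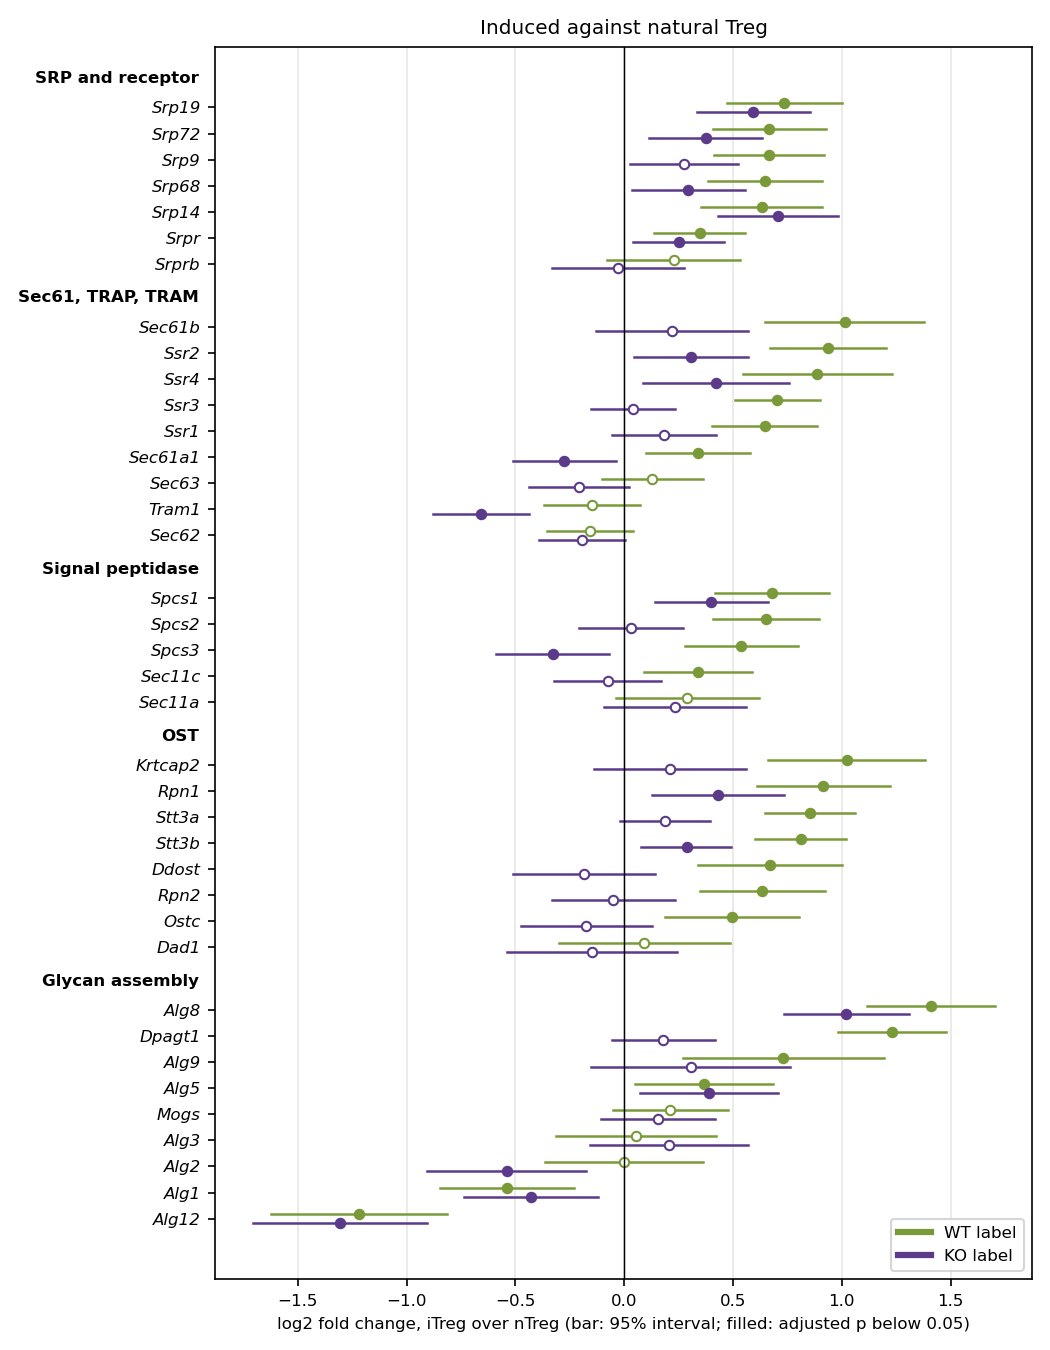
Log2 fold change of iTreg over nTreg (x axis) for each tested member (y axis, grouped by role and ordered by the WT value), in WT-labelled (green) and KO-labelled (purple) cells, 3 libraries a group. Bars are 95% intervals of the edgeR fit and filled points have an adjusted p below 0.05. In WT-labelled cells 27 members lie to the right and 2 to the left with filled points, and in KO-labelled cells 12 and 6 do.

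The 3 largest changes were in glycan enzymes, and went in both directions. Alg8 was 18.0, 19.96 and 16.6 CPM in nTreg WT and 48.9, 50.02 and 45.7 CPM in iTreg WT, 2.66-fold higher (log2 fold change 1.41, SE 0.135, adjusted p = 2.8e-06). Alg12 went the other way, from 37.2, 40.8 and 35.5 CPM to 16.9, 17.3 and 14.5 CPM, 2.33-fold lower (log2 fold change -1.22, SE 0.186, adjusted p = 0.00012). Dpagt1 went from 20.8, 25.1 and 20.9 CPM to 51.8, 51.7 and 53.0 CPM, 2.35-fold higher (log2 fold change 1.23, SE 0.113, adjusted p = 2.0e-06). None of these 3 genes had overlapping groups. Alg1, which adds the first mannose, was the other member that fell (log2 fold change -0.54, adjusted p = 0.0052 in edgeR); its exons overlap those of Eef2kmt over 472 bases. For Alg2 the 95% interval, -0.36 to 0.36, was centred on no change.

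In the other roles Krtcap2 led the oligosaccharyltransferase with a log2 fold change of 1.02. Sec61b led the channel, at 20.9 ± 0.893 CPM in nTreg WT and 42.2 ± 4.43 CPM in iTreg WT (SD, n = 3; log2 fold change 1.01, adjusted p = 0.00022 in edgeR). Spcs1 led signal peptidase with a log2 fold change of 0.68, and Srp19 led the targeting genes with 0.74. Spcs1 is thus a subunit that was higher in iTreg but did not pass in KO-labelled nTreg. Tram1 was the reverse case, with -0.15 for iTreg over nTreg (95% interval -0.37 to 0.07) and a rise in KO-labelled nTreg.

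Among KO-labelled cells fewer members separated iTreg from nTreg. Here 12 were higher and 6 lower in iTreg (32.1% and 29.8% of all tested genes), with a median log2 fold change of 0.19. Groups were separate with iTreg higher for 13 members and lower for 8, against 34.1% and 32.8% of all. Both cell-type comparisons share libraries with the KO comparisons, so they give no independent view of them. Tram1 was 1.58-fold lower in iTreg KO than in nTreg KO (log2 fold change -0.66, SE 0.101, adjusted p = 0.00014), and Sec61a1 and Spcs3 were 1.21-fold and 1.26-fold lower (adjusted p = 0.043 and 0.029 in edgeR). Alg1, Alg2 and Alg12 were the other 3 that were lower, with log2 fold changes of -0.43, -0.54 and -1.31. Alg8 kept the largest rise, at 1.02 (adjusted p = 3.8e-05 in edgeR). Of the 8 oligosaccharyltransferase members 2 were higher, Rpn1 and Stt3b, and none lower. These counts fell to 7 in all without the Xist libraries (51.8% of all tested genes) and to 8 without both nTreg libraries numbered 2 (52.1%), and they ranged from 10 to 18 when 1 library was left out.

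Levels per kilobase of annotated exon place the members within a wide range. In nTreg WT Tram1 (73.0 CPM per kb), Ddost (60.3) and Srp14 (55.8) were the highest members, and Alg9 (5.16), Dpagt1 (6.50) and Alg8 (6.53) the lowest tested ones. In nTreg KO the order began with Ddost (122), Tram1 (121) and Spcs3 (97.5). Sec61a1 and Sec61b, partners in the channel, were at 38.1 and 16.4 CPM per kb in nTreg WT and at 76.3 and 45.3 in nTreg KO. Sec11a was above Sec11c in nTreg WT, at 18.7 against 13.2 CPM per kb. Lengths are those of all merged GENCODE exons, not of the transcripts these cells use, so this order is approximate.

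Genes of neighbouring pathways were followed for comparison, as 79 listed genes with 77 tested. In nTreg 5 rose and none fell in the KO-labelled libraries (median log2 fold change 0.08), where 2.18% of all tested genes rose and 0.341% fell. Of the further oligosaccharyltransferase subunits 2 of 4 rose. Magt1, the thiol oxidoreductase of the Stt3b form, was 53.0, 72.9 and 70.8 CPM in nTreg WT and 157, 200.2 and 189.9 CPM in nTreg KO, 2.78-fold higher (log2 fold change 1.47, SE 0.160, adjusted p = 0.00025), close to the size of the Sec61b rise. Tusc3, its alternative, had a log2 fold change of -0.05 (95% interval -0.30 to 0.20). Tmem258, listed under its older symbol 1810006K21Rik, had a log2 fold change of 0.75 (adjusted p = 0.023 in edgeR). In iTreg Magt1 was 66.2, 80.7 and 65.4 CPM and 96.4, 119 and 86.1 CPM (log2 fold change 0.50, adjusted p = 0.42 in edgeR and 0.016 with the block).

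Of 12 tested further translocation genes 2 rose in KO-labelled nTreg. H13, the protease that cuts spent signal peptides, had a log2 fold change of 0.57 (adjusted p = 0.013 in edgeR), and Sil1, which recharges BiP, had 0.89 (adjusted p = 0.04). Among 15 genes of dolichol supply and further glycan assembly 1 rose, Dhdds, a subunit of the enzyme that builds dolichol's carbon chain (log2 fold change 0.70, SE 0.0927, adjusted p = 0.00097). Its partner Nus1 had 0.43 with an adjusted p of 0.089 in edgeR and 0.01 with the block. None of 16 genes of the EMC and GET insertion routes, none of 8 genes of glycan trimming and none of 22 genes of GPI anchor assembly passed in either cell without the block, with nTreg medians of 0.10, 0.07 and 0.00. With the block Tmem147, a protein found at the translocon, had an adjusted p of 0.033 in nTreg, and Piga, which starts the GPI anchor, had 0.023. In iTreg none of the 77 passed in the unblocked fit. For reference, 8 ER stress genes were followed beside them (Xbp1, Atf6, Atf4, Ddit3, Hspa5, Hsp90b1, Pdia6 and Hyou1). In KO-labelled nTreg all 8 rose in the unblocked fit, with a median log2 fold change of 2.005, against 2.18% of all tested genes. In iTreg 4 of 8 rose in that fit and 5 with the block, where 0.183% and 0.947% of all tested genes passed.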

How the data were processed

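Reads came from a NextSeq 500, per the labels. The deposited files hold raw counts for each gene symbol, made by the authors, with whole numbers only and totals that vary by library. Per the submitters' processing notes cutadapt 1.13, STAR, HTSeq 0.6.1p1, DESeq2 and build mm10 were used; their roles, the annotation and the strand setting are not given in the sources used here.

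The main test was edgeR 4.0.16 (R 4.3.3): TMM, robust quasi-likelihood, the 4 groups as terms in 1 model of the 12 libraries (8 residual degrees of freedom), genes with a minimum count of 10 and total of 15, and Benjamini-Hochberg adjustment over the 12038 genes left, at a threshold of 0.05. It gave 5 comparisons: the KO effect in either cell type, the difference of both, and iTreg against nTreg under either label. Same-numbered WT and KO libraries deviated together (r = 0.438 to 0.572 in nTreg and 0.307 to 0.629 in iTreg), but nTreg and iTreg libraries did not (-0.0539 to 0.0953), so a model blocked on replicate number is given beside the KO comparisons. Alternatives were RLE size factors, no filter, a filter at 5 CPM in 3 libraries, DESeq2 1.42.0, limma voom 3.58.1, the block, only the compared groups and leaving out each library. Fits without the 3 Xist libraries, without both nTreg libraries numbered 2 and at equal depth were chosen after seeing the data.

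The members, lists and tests were chosen with earlier results of these data known. Library values are given, per role, for up to 4 members of smallest p in nTreg, the member of largest change between iTreg and nTreg, those that pass in iTreg or in the difference, and the alternative catalytic subunits. In simulated data 1.5, 2 and 4-fold changes were recovered for 19.4%, 61.2% and 81.8% of changed genes in nTreg, 13.4%, 53.7% and 83.3% in iTreg and 1.49%, 29.9% and 71.2% for the difference. Each rate rests on 66 or 67 genes drawn at random from all tested genes, with a spread per gene that all groups shared. The rates are therefore not those of these members, and the real groups may differ in spread. Gene positions and lengths came from GENCODE M21, where all 39 members matched, and promoters from RefSeq. No library was a copy of another.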

Additional observations from a re-analysis of the deposited data

Results flagged for a closer look

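The difference between the KO effects in iTreg and nTreg passed its test for 1 member, Dpagt1, the enzyme that starts the glycan on dolichol, at -1.052 on the log2 scale (edgeR, adjusted p = 0.017). Its level was higher in all 3 KO-labelled than in all 3 WT-labelled nTreg libraries, while the iTreg groups overlapped. In iTreg WT the level was 51.8, 51.7 and 53.0 CPM, against 48.3, 49.0 and 47.2 CPM in nTreg KO. A link between that level and the smaller KO effect in iTreg was not tested. The call depended on single libraries: it was lost without nTreg WT 1, nTreg WT 3, nTreg KO 1, nTreg KO 2 or iTreg WT 2, at adjusted p of 0.063, 0.075, 0.052, 0.06 and 0.055.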

How the results depend on the processing

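The direction of the nTreg result held in every fit run, with no member called lower in any. Of 38 members 29 passed with limma voom and 29 in the fit of the compared groups alone. There were 8 without the 3 Xist libraries, 11 without both nTreg libraries numbered 2 and 15 to 17 without 1 library. Over all genes DESeq2, voom, the block and the compared groups alone called 496, 1068, 1083 and 1130 instead of 304. That count was 73 without the Xist libraries, 106 without both nTreg libraries numbered 2 and 168 to 217 without 1 library. In iTreg DESeq2 called 2 members, and leaving out 1 library gave 0 to 1. Over all genes 22 passed, 99 with DESeq2, 114 with the block and 0 to 64 without 1 library. For the difference DESeq2 called 8 members, voom 9 and the block 7, where they called 140, 103 and 217 of all genes and the main fit 35. There were 0 members without the Xist libraries, 0 without both libraries numbered 2 and 0 at equal depth, against 1, 1 and 21 of all genes. Leaving out 1 library gave 0 to 8 members and 1 to 58 of all genes. It gave 0 members without nTreg WT 1, WT 3, KO 1 or KO 2 or iTreg WT 2, and 8 without iTreg KO 2. In WT-labelled cells 27 to 29 members separated iTreg from nTreg when 1 library was left out, and in KO-labelled cells 10 to 18, with 7 without the Xist libraries and 8 without both libraries numbered 2. For these cell-type comparisons, where the numbers do not pair libraries, the replicate block called 29 and 15 members. Over all genes the main fit called 7850 in WT-labelled and 7451 in KO-labelled cells, and the block 8051 and 7680. Without 1 library these were 7050 to 7768 and 6578 to 7235. In KO-labelled cells they were 6238 without the Xist libraries and 6267 without both libraries numbered 2. The cause of these shifts was not tested.

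Signs changed in at least 1 alternative for 1 member in nTreg KO against WT (Sec62), 12 in iTreg, 7 in the difference, and 2 and 7 in iTreg against nTreg in WT-labelled and KO-labelled cells. None of these 29 values passed in the main fit or in a fit of the other sign, and the main values were up to 0.235 in size. Of the members whose library values are given, those in iTreg KO against WT were Srp68 (-0.027 with voom, -0.053 to 0.172 without 1 library), Sec11c (0.011 without the filter, 0.053 with voom, 0.009 in the compared groups alone, -0.058 to 0.02 without 1 library), Spcs1 (0.007 at equal depth, -0.156 to 0.077 without 1 library) and Alg8 (-0.202 to 0.032 without 1 library). In the difference they were Sec11a (-0.298 to 0.08) and Alg12 (-0.295 to 0.127), both without 1 library. For iTreg against nTreg in WT-labelled cells Alg2 gave 0.033 with voom, 0.005 with the replicate block, 0.111 without both libraries numbered 2, 0.019 at equal depth and -0.125 to 0.109 without 1 library. In KO-labelled cells Srprb gave 0.001 without the Xist libraries and -0.185 to 0.075 without 1 library, Sec11c 0.022 without both libraries numbered 2 and -0.149 to 0.022 without 1 library, and Ssr3, Spcs2 and Sec11a -0.008 to 0.082, -0.018 to 0.077 and -0.007 to 0.371 without 1 library. Sec61g, at 0 to 20 reads, could not be tested for lack of depth. With all libraries thinned to the smallest total 19 members passed in nTreg, as at full depth, and 270 of all genes against 304.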
